A study of Mus musculus with 6 samples.

Results

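The genes described here encode the enzymes and transporters that carry glucose through glycolysis, glycogen metabolism and the pentose phosphate pathway. They were 39 genes chosen by symbol, for their place in these pathways, and all were found among the 23284 symbols of the expression tables. They comprise 5 transporters of glucose or lactate, 18 glycolytic enzymes, 4 enzymes that make and remove fructose 2,6-bisphosphate, 8 glycogen enzymes and 4 pentose phosphate enzymes. Their messages were compared between hearts with and without an intact allele of Tfam, the gene of mitochondrial transcription factor A, a protein that coats mitochondrial DNA and without which that DNA is neither expressed nor maintained.

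Whole hearts of C57BL/6 mouse embryos at E13.5 were flash-frozen, and polyadenylated RNA was sequenced in 6 libraries, each from a pool of 5 hearts. The 3 Tfam KO libraries came from Tfam fl/fl; Nkx2.5 IRES-Cre/+ embryos and the 3 Control libraries from Tfam fl/+; Nkx2.5 IRES-Cre/+ embryos. Every embryo therefore carried Cre at Nkx2.5, and the Control hearts had 1 floxed Tfam allele. Nkx2.5 drives Cre in cardiac progenitors and their descendants, so cells of other origins in the same hearts keep their Tfam alleles.

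Glycolysis splits glucose into pyruvate in the cytosol and makes a small amount of ATP without oxygen or mitochondria. Most steps have several isozymes encoded by separate genes, which differ in regulation and in the tissues that use them. The embryonic heart is known to rely on glycolysis and to hold glycogen, and it turns towards oxidative metabolism as it matures. Glucose 6-phosphate, the product of hexokinase, is the branch point from which carbon can go down glycolysis, into glycogen or into the pentose phosphate pathway.

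The libraries held 12370092 to 18078620 reads, a number recovered from the steps between low values. They did not share a common scale: the median tested gene was 0.28 higher in Tfam KO on the deposited log2(FPKM + 1) scale, where FPKM is reads per length of transcript and per library total. After each library was divided by a size factor (0.925 to 1.33 in Tfam KO and 0.815 to 1.01 in Control), that median was 0.00. Rn45s, the ribosomal RNA precursor, ranged from 25634 to 53499 FPKM in Tfam KO and from 47595 to 55694 in Control. Its part in the scale difference was not tested. Below, the FPKM of single libraries are as deposited, and tests and fold changes are on the size-factor scale, with the deposited scale beside them where the call of a member or the sign of its difference changes.

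Tfam itself was at 3.97, 4.77 and 6.22 FPKM in the Tfam KO libraries and at 4.64, 5.55 and 6.62 in the Control libraries. These ranges overlapped, whereas with size factors every Tfam KO library (3.39, 5.15 and 4.67) lay below every Control library (5.69, 6.40 and 6.58). The log2 difference was -0.43 (adjusted p = 0.140, limma) and -0.15 as deposited (adjusted p = 0.651), so the message of the targeted gene did not pass the threshold. Whether the deleted part of the gene is covered by these reads was not tested. All 10 cardiomyocyte markers were detected, with summed levels of 9856 to 17671 scaled FPKM in Tfam KO and 14534 to 18820 in Control. With size factors 2 of them, Ttn and Nkx2-5, passed as lower and the median of the 10 was -0.30. By limma-voom 3 passed as lower, Myh7 being the third. As deposited 0 passed, with 1 higher (Myh6) and 1 lower (Nkx2-5) before adjustment, and the median was 0.04. The 7 tested erythroid markers all had negative differences, with a median of -0.43 (-0.09 as deposited). None passed the threshold by limma or limma-voom, and 1 of them had an unadjusted p under 0.05 in the limma fit. The sum over all 12 listed erythroid markers ran from 3340.4 to 10167 in Tfam KO and from 6246 to 12941 in Control. Of the 4 tested smooth muscle markers, Acta2 (-0.76, adjusted p = 0.0109, limma) and Cnn1 (-0.99, adjusted p = 0.0107) passed as lower, neither of them as deposited. Tagln did not pass on either scale (-0.31, or 0.02 as deposited). Pdgfrb had a positive difference (0.39) and passed as higher as deposited (0.68, adjusted p = 0.0419, limma). Of the 7 tested macrophage markers, 4 had positive and 3 negative differences, with a median of 0.10. Lyz2 alone of them passed, as lower (-0.59, adjusted p = 0.0204, limma), but not as deposited. The 8 mesenchymal markers had 7 positive differences and a median of 0.24, with 0 past the threshold (3 higher before adjustment, 0 by limma-voom), and a median of 0.58 with 3 higher as deposited. The part of these cell types in the members' values was not tested. In pooled whole hearts, fewer cells of a type and less RNA per cell cannot be told apart.

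Of the 39 genes, 37 passed the filter of a mean of at least 1 FPKM, and Pfkfb1 and Pfkfb4 lay under it. Of the 37, 1 rose in Tfam KO and 0 fell at an adjusted p of 0.05 (limma, Benjamini-Hochberg over 10807 genes). The one that rose was Hk2. Over all tested genes, 1.99% passed as higher and 2.60% as lower. Without adjustment, a p under 0.05 was found for 3 higher members (Hk2, Gys1 and Ugp2) and 7 lower members (Hk1, Pfkl, Aldoc, Pgam2, Slc2a3, Pygb and Pygl), against 8.49% higher and 11.0% lower of all tested genes. By limma-voom on reads the counts past the threshold were 1 and 0 (3 and 8 without adjustment), against 2.65% and 4.21% of all genes. On the deposited scale 3 members passed as higher (Hk2, Gys1 and Ugp2) and 0 as lower, with 13 and 1 before adjustment. On that scale 6.21% of all tested genes passed as higher and 1.16% as lower.

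The median log2 fold change of the 37 was -0.03, beside 0.00 for all tested genes, and on the deposited scale it was 0.27 beside 0.28. With size factors 15 members had a positive difference and 22 a negative one, whereas as deposited the split was 32 and 5. For 35 of the 37 the log2 difference was under 0.5 in size, with standard errors between 0.10 and 0.29. The 95% interval of the fold change lay within 1.5-fold in either direction for 25 members and within 2-fold for 36. These intervals are on the size-factor log2(FPKM + 1) scale, where that of Aldoc alone reached past 2-fold, to -1.06. As deposited the estimate for Hk2 was itself above 2-fold, at 1.04 ± 0.23 (SE, which on that scale does not rest on the spread of Hk2 itself).

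**Figure D1:**
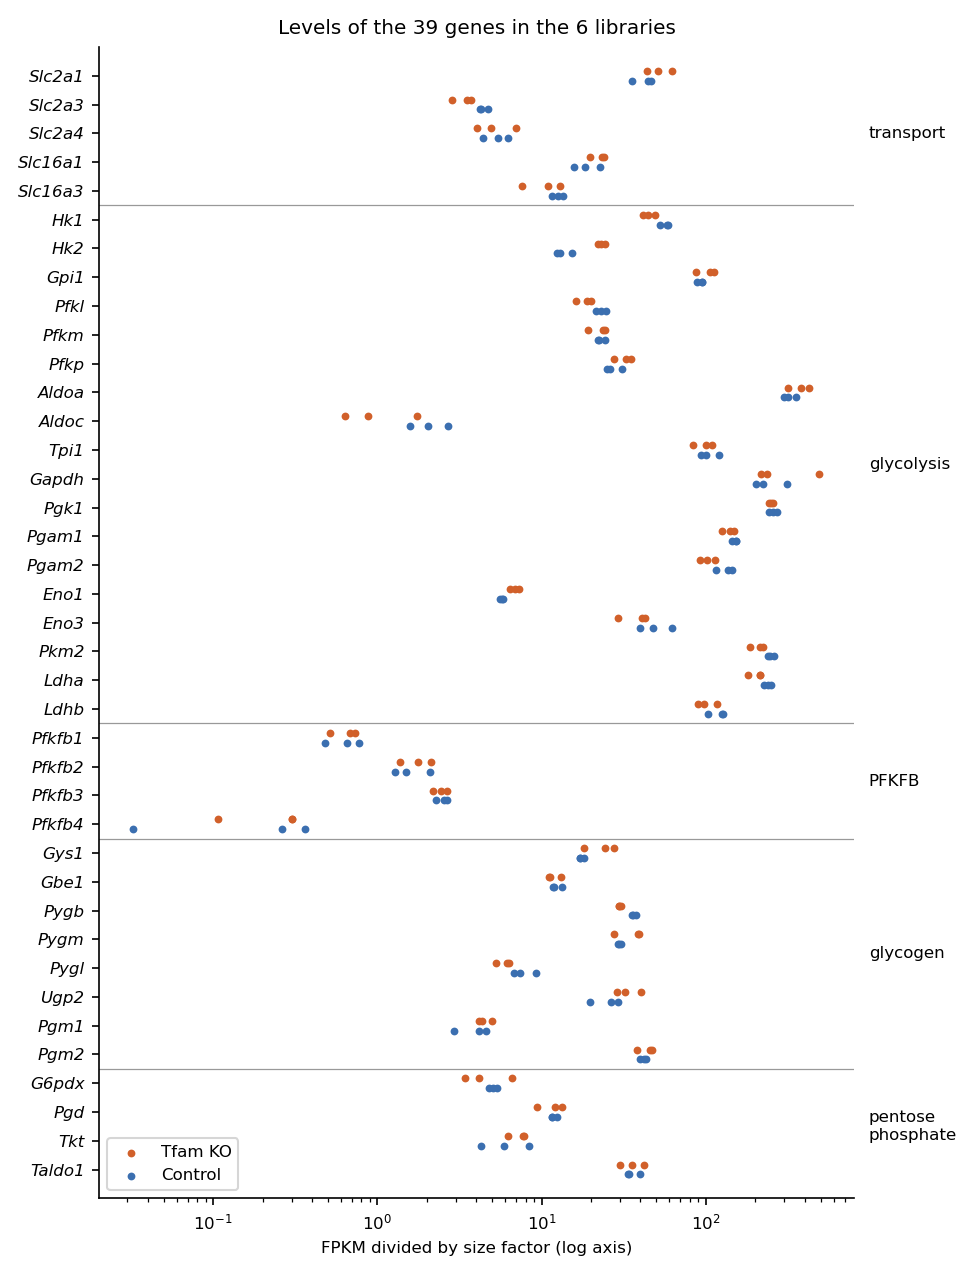
FPKM divided by the size factor (log axis) of the 39 genes in the 3 Tfam KO libraries (orange) and the 3 Control libraries (blue), 1 point per library, grouped by branch. Points of Hk2 are separated by a wide gap, whereas most genes have overlapping or adjoining points, and Gapdh has 1 Tfam KO library far above the others.

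**Figure D2:**
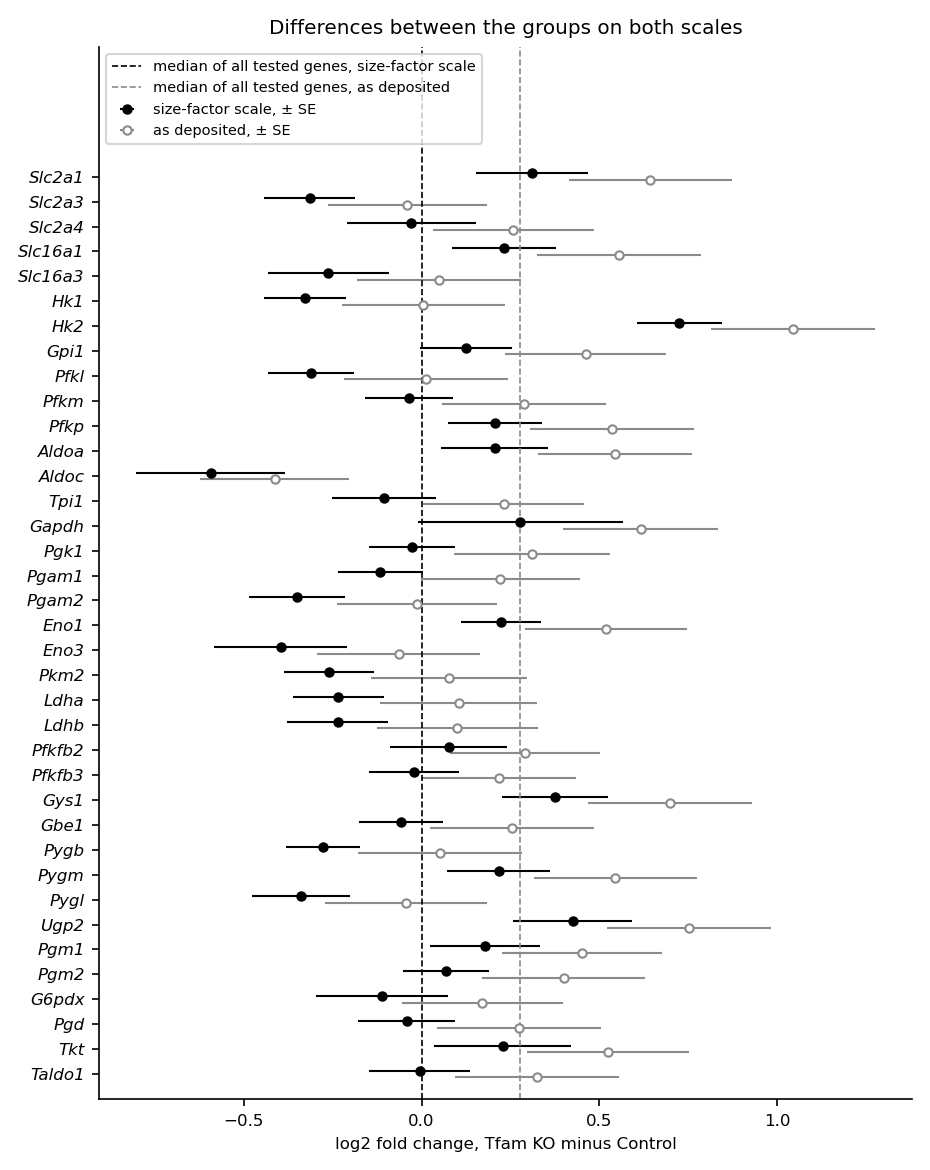
Log2 fold change, Tfam KO minus Control, of the 37 tested members with its standard error, on the size-factor scale (black) and as deposited (grey, open). Dashed lines give the median of all tested genes on each scale, and members scatter around that line on both scales, with Hk2 farthest to its right.

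Levels spanned several orders of magnitude. In Control, 8 members averaged over 100 FPKM, 19 lay between 10 and 100, 10 between 1 and 10, and 2 under 1. The most abundant was Aldoa at 289 ± 12.5 FPKM (SD, n = 3), followed by Pgk1 at 229 ± 17.8, Pkm2 at 223 ± 34.4, Gapdh at 217 ± 32.5 and Ldha at 213 ± 16.7. Those last 4 did not differ beyond their spread. The least abundant were Pfkfb1 at 0.557 ± 0.0720 and Pfkfb4 at 0.186 ± 0.142.

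Glucose enters the cell through facilitative transporters, and Slc2a1, which encodes GLUT1, the main carrier of the embryonic heart, supplied most of their message. Slc2a1 was at 73.3, 47.7 and 58.2 FPKM in Tfam KO and at 36.1, 30.7 and 46.8 in Control. All 3 Tfam KO libraries lay above the Control libraries as deposited, but with size factors the groups overlapped. Its log2 difference was 0.31 ± 0.16 (SE, adjusted p = 0.317, limma), and 0.64 as deposited (adjusted p = 0.0605). Slc2a3, which encodes GLUT3, a high-affinity carrier, was at 4.11, 2.63 and 4.94 FPKM against 3.44, 4.08 and 4.30. Slc2a4, which encodes the insulin-responsive GLUT4 of adult muscle and fat, was at 8.16, 4.54 and 5.37 against 4.40, 5.44 and 4.43. Neither passed the threshold on either scale, with differences of -0.32 for Slc2a3 and -0.03 for Slc2a4 (0.26 as deposited).

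Because a share within a library does not depend on that library's scale, each isozyme was also expressed as a percentage of the summed FPKM of its family. There were 20 such shares over 11 families, and with 3 libraries against 3 the exact permutation test cannot go below p = 0.1. In 10 of the 20 the groups did not overlap, each with an exact permutation p of 0.1 and an adjusted p of 0.2. For comparison, among all pairs of tested genes the share of 1 gene in the sum separated the groups in 25.9% of pairs. That figure is for pairs, whereas several families hold more genes, and no such figure was computed for them. Shares of the same family are not independent of each other.

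Slc2a1 made up 85.8% ± 0.990 of the 3 glucose transporters in Tfam KO and 80.9% ± 4.13 in Control (SD, n = 3), and the groups did not overlap. The gap between them was narrow, from 84.3% in the highest Control library to 84.96% in the lowest Tfam KO library. Slc2a3 made up 5.60% ± 1.39 against 8.58% ± 1.37, also without overlap. The summed level of the 3 transporters overlapped between the groups.

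Hexokinase traps glucose in the cell by phosphorylating it, and Hk2, 1 of its 2 measured genes, was the member that rose. Hk2, the isozyme typical of insulin-sensitive muscle and of many growing cells, was at 26.8, 22.6 and 29.2 FPKM in Tfam KO and at 10.2, 11.3 and 15.5 in Control. Every Tfam KO library was above every Control library on both scales. After scaling, the means were 23.1 ± 1.27 and 13.6 ± 1.57 FPKM (SD, n = 3), a ratio of 1.70. The log2 difference was 0.72 ± 0.12 (SE, adjusted p = 0.00685, limma), with a 95% interval of 0.46 to 0.99. As deposited it was 1.04 (adjusted p = 0.000313). Over 14 alternative settings, each of which kept the call, the log2 difference ran from 0.66 to 1.04 and the adjusted p from 0.000313 to 0.0374. Hk2 was measured by 768 to 2690 reads per library and shares no stretch of 50 bases with another gene's transcript in the reference. It was not among the most changed genes of the heart, being the 145th largest of the 215 genes that rose.

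Hk1, the isozyme present in most tissues, was at 52.3, 45.1 and 55.2 FPKM in Tfam KO and at 47.3, 45.9 and 59.4 in Control. As deposited the groups coincided, at 50.9 ± 5.20 and 50.9 ± 7.44, with a log2 difference of 0.01. With size factors every Tfam KO library lay below every Control library, at 45.0 ± 3.65 against 56.7 ± 3.27, and the difference was -0.33 ± 0.12 (SE, adjusted p = 0.153, limma). Its direction therefore depended on the scale.

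The hexokinase share did not. Hk2 made up 33.9%, 33.4% and 34.6% of the 2 messages in Tfam KO and 17.7%, 19.7% and 20.7% in Control, with means of 34.0% ± 0.595 and 19.4% ± 1.53. The 3 libraries of each group lay close together, and the difference was 14.6 percentage points (exact permutation p = 0.1, the smallest possible). The sum of the 2 hexokinases overlapped between the groups, at 68.1 ± 4.91 scaled FPKM in Tfam KO and 70.3 ± 4.25 in Control (exact permutation p = 0.7). Thus the composition of the hexokinase message differed while its scaled total did not separate. As deposited the summed level was 13.9 FPKM higher in Tfam KO.

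The sequences around the starts of both hexokinase genes are shown because Hk2 is the member that rose and Hk1 is its counterpart. They come from RefSeq on GRCm38.p6, each running from 250 bases before to 50 bases after a start, 5′ to 3′ on the gene's strand. Capitals mark ACGTG, the core of the element bound by hypoxia-inducible factors, or its reverse complement. Hk2 lies on the minus strand at chr6:82774405-82774704, and the 2 listed starts of Hk1 lie on the minus strand at chr10:62379859-62380158 and chr10:62340372-62340671.
Hk2: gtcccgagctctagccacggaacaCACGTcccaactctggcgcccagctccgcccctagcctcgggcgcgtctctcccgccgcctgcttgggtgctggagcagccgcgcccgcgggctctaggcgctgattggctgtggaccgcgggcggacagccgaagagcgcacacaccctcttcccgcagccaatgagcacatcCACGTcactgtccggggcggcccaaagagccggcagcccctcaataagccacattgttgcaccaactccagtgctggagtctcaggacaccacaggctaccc
Hk1, first start: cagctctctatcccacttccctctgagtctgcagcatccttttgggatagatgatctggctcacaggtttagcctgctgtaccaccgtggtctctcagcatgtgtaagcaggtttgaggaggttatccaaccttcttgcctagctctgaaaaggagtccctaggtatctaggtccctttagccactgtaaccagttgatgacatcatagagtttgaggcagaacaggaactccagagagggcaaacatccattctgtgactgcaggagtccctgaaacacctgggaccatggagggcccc
Hk1, second start: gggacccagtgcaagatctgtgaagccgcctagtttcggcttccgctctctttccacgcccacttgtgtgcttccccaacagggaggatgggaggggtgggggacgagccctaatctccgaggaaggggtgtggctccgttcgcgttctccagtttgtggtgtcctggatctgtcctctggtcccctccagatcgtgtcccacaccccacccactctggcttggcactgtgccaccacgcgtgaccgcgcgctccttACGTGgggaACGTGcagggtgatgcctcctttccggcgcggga
The Hk2 window held 2 matches to ACGTG, the first Hk1 window 0 and the second Hk1 window 2. Across the 35 members with an entry, 24 of 54 windows held at least 1 match (44.4%), against 19.6% of all 32851 windows of the table. The matches were spread over 20 members, and the most were in 1 window of Ldha, which held 5. Of these 20 members, Hk2 was the one that passed the threshold with size factors and Ugp2 the other that passed as deposited. The motif is short and rich in G and C, windows of 1 gene can overlap, and a match describes letters, not a site.

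**Figure D3:**
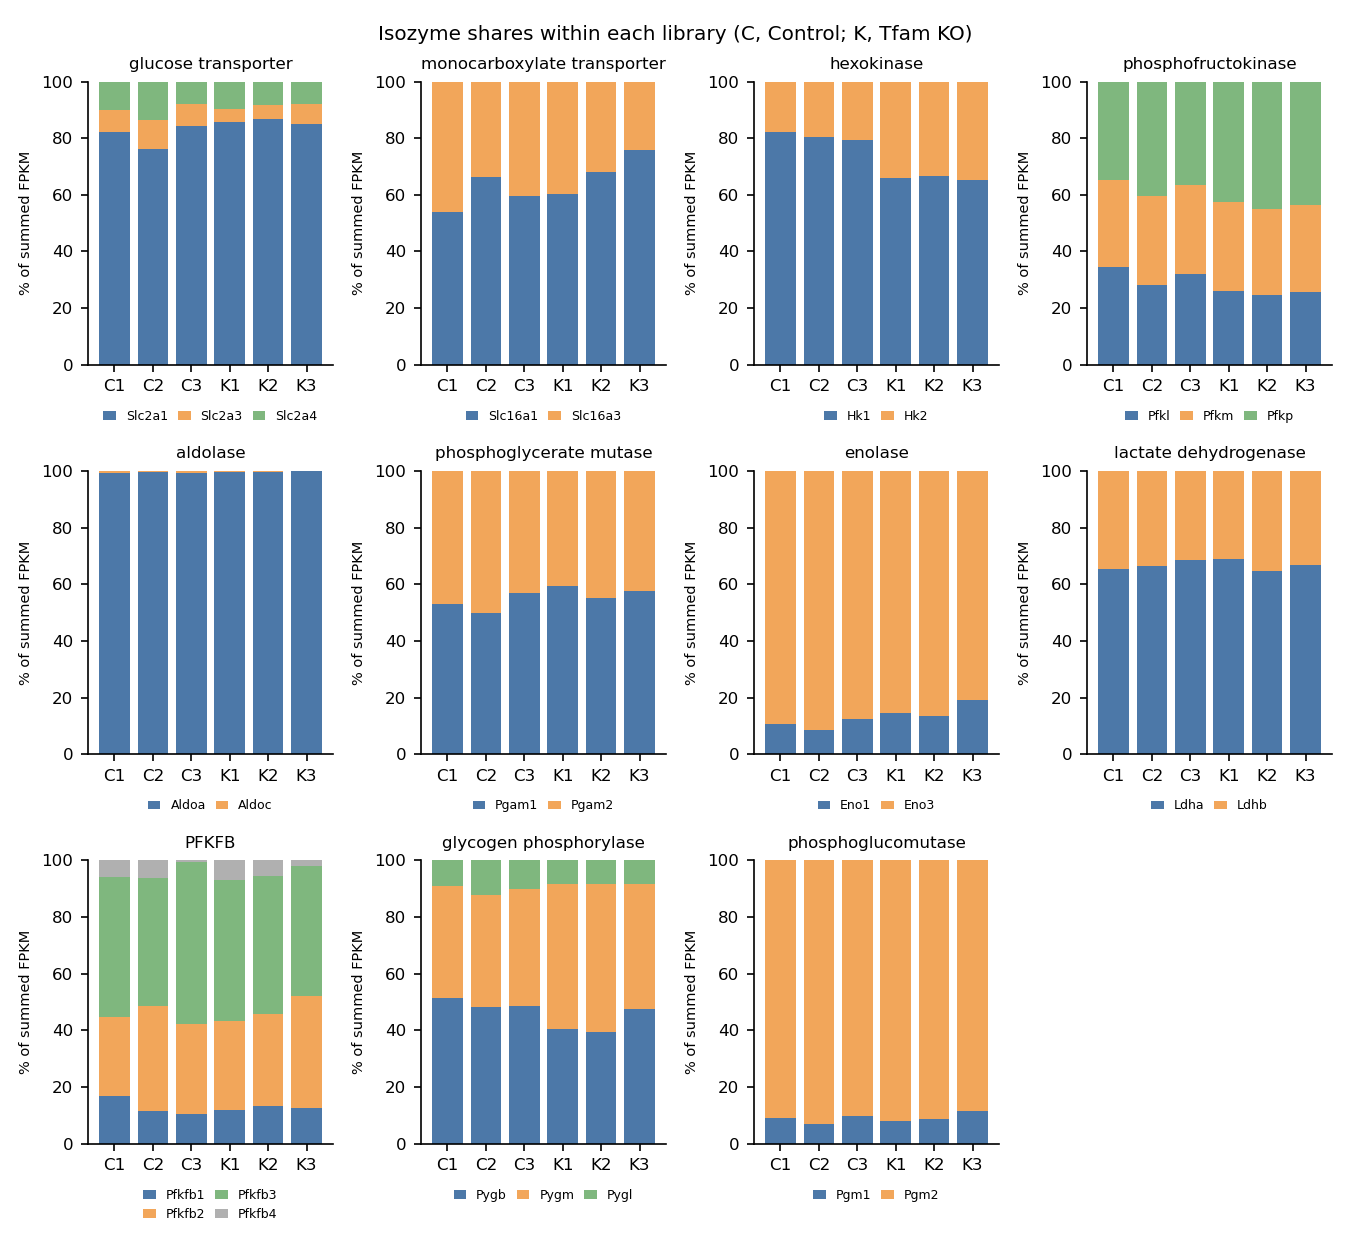
Share of each isozyme in the summed FPKM of its family, in percent, in each Control (C) and Tfam KO (K) library, 1 stacked bar per library and 1 panel per family. The Hk2 segment is 33.4% to 34.6% high in the Tfam KO libraries and 17.7% to 20.7% in the Control libraries, whereas the lactate dehydrogenase panel looks alike in all 6.

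Phosphofructokinase, which commits sugar phosphate to glycolysis, is built from liver (Pfkl), muscle (Pfkm) and platelet (Pfkp) subunits, and all 3 messages were of similar level. Pfkp was at 38.2, 32.3 and 36.8 FPKM in Tfam KO and at 20.4, 26.8 and 26.3 in Control. Pfkl was at 23.3, 17.6 and 21.7 against 20.1, 18.6 and 23.1, and Pfkm at 28.4, 21.8 and 25.7 against 18.0, 21.0 and 22.5. None passed the threshold, with log2 differences of 0.21 for Pfkp, -0.31 for Pfkl and -0.04 for Pfkm, the last 2 of which were positive as deposited (0.01 and 0.29).
Pfkp made up 43.7% ± 1.27 of the family in Tfam KO and 37.3% ± 2.82 in Control, and Pfkl 25.4% ± 0.770 against 31.5% ± 3.20, both without overlap. The Pfkm share was 30.9% against 31.2% and overlapped. The scaled sum of the 3 subunits was 72.6 ± 8.02 against 73.3 ± 2.95 FPKM. For Pfkp, 17.1% of the stretches of 50 bases also occur in the transcripts of Pitrm1, which could share its reads.

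The PFKFB enzymes set the level of fructose 2,6-bisphosphate, a strong activator of phosphofructokinase. All 4 were scarce: Pfkfb3, the form with the highest kinase activity, averaged 2.76 ± 0.447 FPKM in Tfam KO and 2.23 ± 0.409 in Control, and Pfkfb2, the heart form, 2.02 ± 0.691 and 1.45 ± 0.384. Pfkfb1 and Pfkfb4 stayed under 1 FPKM in every library. Neither tested member passed (log2 differences of -0.02, or 0.22 as deposited, for Pfkfb3 and 0.08 for Pfkfb2), and all 4 shares overlapped between the groups.

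**Figure D4:**
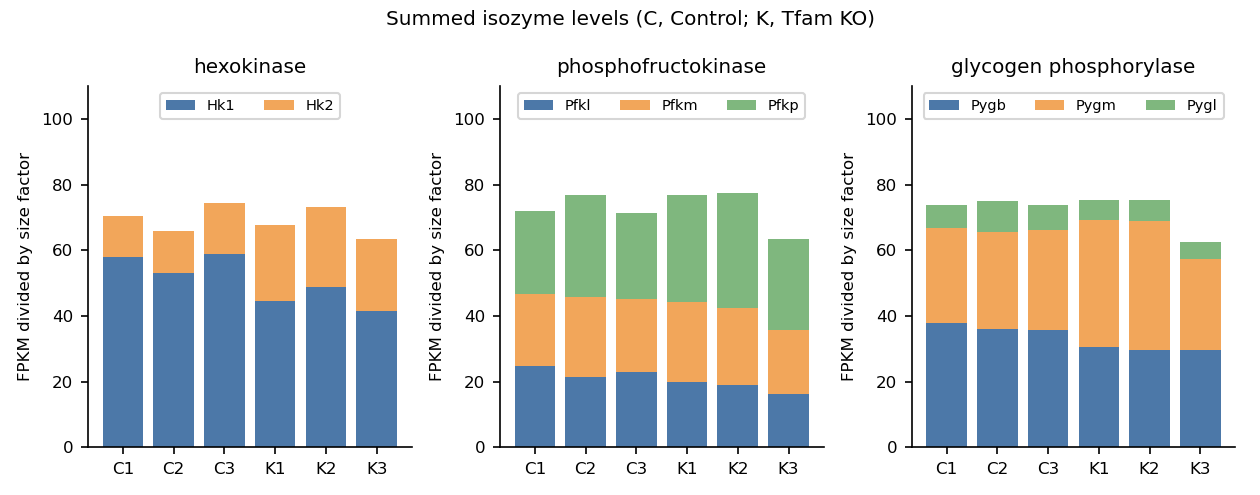
Size-factor-scaled FPKM summed over the isozymes of hexokinase, phosphofructokinase and glycogen phosphorylase in each Control (C) and Tfam KO (K) library, with a segment for each isozyme. The bar heights overlap between the groups in all 3 panels, while the segments of Hk2, Pfkp and Pygm take a larger part of the bar in Tfam KO.

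Between phosphofructokinase and pyruvate none of the members passed the threshold, and most were abundant. Aldoa, the muscle aldolase, was at 446, 396 and 424 FPKM in Tfam KO and at 290.02, 276 and 301 in Control. The groups were apart as deposited (log2 difference 0.54, adjusted p = 0.0938, limma), but overlapped with size factors (0.21, adjusted p = 0.515). Aldoc, the brain form, was scarce, at 1.03, 1.62 and 0.844 FPKM against 2.19, 1.38 and 2.05. It had the largest negative difference of the members, -0.59 ± 0.21 (SE, adjusted p = 0.153, limma), on 22 to 63 reads per library. That log2(FPKM + 1) scale compresses low values. By limma-voom on reads the difference was -1.13 (adjusted p = 0.0713), and the ratio of the scaled means was 0.517. Aldoc made up 0.279% ± 0.112 of the aldolase message in Tfam KO and 0.641% ± 0.130 in Control, without overlap.

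Gapdh, which yields the NADH of glycolysis and often serves as a reference gene, had the largest standard error of the tested members. It was at 276, 456 and 287 FPKM in Tfam KO and at 254, 193 and 203 in Control. The second Tfam KO library stood apart, and the log2 difference of 0.28 ± 0.29 (SE, adjusted p = 0.673, limma) turned to -0.09 without it. Gapdh is named here after its values were seen. In the reference, 82.5% of its stretches of 50 bases also occur in other genes, mostly processed copies, so its reads may be split among them. The other single-gene steps had log2 differences of 0.13 for Gpi1, -0.11 for Tpi1 (0.23 as deposited) and -0.03 for Pgk1 (0.31 as deposited). Pgk1, which is X-linked and makes the first ATP of glycolysis, had a 95% interval of -0.30 to 0.24. Its copies share 68.0% of its stretches.

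Phosphoglycerate mutase was the only step of the 11 whose scaled total did not overlap between the groups, at 241.9 ± 20.1 FPKM in Tfam KO and 282 ± 13.1 in Control (exact permutation p = 0.1, adjusted over the 11 totals 0.629). As deposited its total was instead 22.0 FPKM higher in Tfam KO. Pgam1, the widespread form, and Pgam2, the muscle form, had log2 differences of -0.12 (0.22 as deposited) and -0.35 (adjusted p = 0.671 and 0.191, limma), and the Pgam2 share overlapped.

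Enolase makes phosphoenolpyruvate, and the muscle form Eno3 was the major message measured. Eno3 was at 49.9, 37.9 and 38.8 FPKM in Tfam KO and at 38.9, 53.8 and 40.2 in Control, which overlapped (log2 difference -0.40, adjusted p = 0.283, limma). Eno1, the widespread form, was at 8.48, 5.91 and 9.20 against 4.57, 5.05 and 5.76, with every Tfam KO library above every Control library, but did not pass (0.22, adjusted p = 0.312). Eno3 thus made up 84.3% ± 3.03 of the sum of both in Tfam KO and 89.5% ± 1.97 in Control, without overlap. The low level of Eno1 should not be read as its true abundance, since 72.2% of its stretches of 50 bases also occur in other genes, chiefly Eno1b. The cardiomyocyte marker list had a median of -0.30 with size factors and 0.04 as deposited, and its part in the lower values of the muscle forms Eno3 and Pgam2 was not tested. Of 9 skeletal muscle markers, 8 averaged under 1 FPKM, with Myf5 and Myf6 at 0 in every library. Ckm, the other one, which heart muscle also uses, was at 33.5 to 121 FPKM in Tfam KO and 77.9 to 116 in Control.

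Pyruvate kinase (Pkm2), lactate dehydrogenase (Ldha and Ldhb) and the lactate carriers form the exit towards lactate. The row Pkm2 carries an older symbol of the gene Pkm. Its value is for the gene and does not separate splice forms. Pkm2 averaged 235 ± 31.8 FPKM in Tfam KO and 223 ± 34.4 in Control, Ldha 229.9 ± 28.6 and 213 ± 16.7, and Ldhb 113 ± 5.43 and 105.4 ± 2.85. Their log2 differences were -0.26, -0.23 and -0.24 with size factors and 0.08, 0.10 and 0.10 as deposited, and none passed on either scale. The lactate dehydrogenase mixture was alike: Ldhb, the form typical of the adult heart, made up 33.1% ± 2.13 of the sum in Tfam KO and 33.2% ± 1.67 in Control (exact permutation p = 1). Slc16a1, which encodes MCT1, was at 23.0, 21.7 and 32.0 FPKM against 12.9, 19.7 and 18.6, with a log2 difference of 0.23 (adjusted p = 0.441, limma). Slc16a3, which encodes MCT4, an exporter of lactate, had a difference of -0.26 (adjusted p = 0.450), or 0.05 as deposited, and its share of the carriers overlapped.

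With size factors, 3 members lay wholly above Control in Tfam KO (Hk2, Eno1 and Gys1) and 8 wholly below (Hk1, Pfkl, Pgam2, Pkm2, Ldha, Slc2a3, Pygb and Pygl). The same holds for 11.8% and 12.2% of all tested genes. As deposited, 13 members lay wholly above and 0 wholly below, against 25.6% and 2.34% of all tested genes.

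In the glycogen branch, Gys1 and Ugp2 passed as higher in Tfam KO on the deposited scale but not with size factors. Gys1, the glycogen synthase of muscle, was at 32.3, 22.4 and 24.2 FPKM in Tfam KO and at 14.8, 14.9 and 17.3 in Control. All 3 Tfam KO libraries were above Control on both scales. Its log2 difference was 0.38 ± 0.15 (SE, adjusted p = 0.201, limma), and 0.70 as deposited (adjusted p = 0.0383). Without the third Tfam KO library it was 0.54 (adjusted p = 0.0481). Ugp2, which makes the UDP-glucose that synthase uses, was at 33.9, 29.96 and 53.3 FPKM against 16.01, 25.2 and 26.6. The difference was 0.42 ± 0.17 (SE, adjusted p = 0.198, limma), and 0.75 as deposited (adjusted p = 0.0222), with overlap after scaling. Gbe1, the branching enzyme, averaged 13.3 ± 1.30 and 11.004 ± 1.25 FPKM (log2 difference -0.06, adjusted p = 0.840, limma), and the difference was 0.25 as deposited.

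Glycogen phosphorylase releases glucose 1-phosphate from glycogen and has muscle (Pygm), brain (Pygb) and liver (Pygl) forms. Pygm was at 45.2, 36.4 and 36.7 FPKM in Tfam KO and at 23.7, 25.6 and 30.7 in Control. Pygb was at 35.7, 27.5 and 39.5 against 30.8, 31.3 and 36.0. Pygl was at 7.23, 5.83 and 7.001 against 5.52, 7.995 and 7.41. None of the 3 passed on either scale, with log2 differences of 0.22, -0.28 and -0.34 with size factors. That of Pygb was 0.05 as deposited. Pygm made up 49.2% ± 4.44 of the family in Tfam KO and 40.2% ± 1.13 in Control, while Pygb made up 42.5% ± 4.37 against 49.3% ± 1.68 and Pygl 8.33% ± 0.109 against 10.5% ± 1.62. None of these 3 shares overlapped between the groups. The leading form was Pygb in every Control library and Pygm in the first and second Tfam KO libraries. The scaled sum was 71.0 ± 7.42 against 74.1 ± 0.739 FPKM and overlapped.

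The phosphoglucomutase rows Pgm2 and Pgm1, which link glucose 1-phosphate to glucose 6-phosphate, averaged 49.5 ± 6.40 and 5.15 ± 1.35 FPKM in Tfam KO and 37.3 ± 5.25 and 3.51 ± 1.04 in Control. RefSeq lists each of these symbols as an older name of the other, so which enzyme each row measures could not be settled. Neither passed, with log2 differences of 0.07 and 0.18.

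The pentose phosphate pathway makes NADPH and ribose 5-phosphate, and none of its 4 members passed. G6pdx, the X-linked entry enzyme, was at 7.77 FPKM in the first Tfam KO library and between 3.88 and 4.82 in the other 5 libraries (log2 difference -0.11, or 0.17 as deposited). Pgd, the second NADPH-making enzyme, averaged 13.48 ± 4.13 FPKM in Tfam KO and 10.6 ± 0.917 in Control. Of the non-oxidative enzymes, Tkt averaged 8.20 ± 1.04 and 5.52 ± 1.61, and Taldo1 40.8 ± 8.42 and 32.0 ± 2.76. Log2 differences were -0.04 for Pgd (0.27 as deposited), 0.23 for Tkt and -0.01 for Taldo1 (0.33 as deposited). Of the sex-linked genes, Xist was at 6.38 to 21.2 FPKM in Tfam KO and 10.4 to 20.8 in Control, and Ddx3y at 4.17 to 7.43 and 1.46 to 2.44. The Y-linked Ddx3y, Eif2s3y, Kdm5d and Uty each lay wholly above Control in Tfam KO on both scales. Of the 4 tested sex-linked genes, 3 passed as higher as deposited and by limma-voom, and 0 by limma with size factors. The part of the pools' sex in the values of the X-linked Pgk1, G6pdx and Pfkfb1 was not tested.

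Around these members, 115 further genes of the same pathways were listed, and 80 were tested. Of these, 4 rose and 2 fell, against 1.99% and 2.60% of all tested genes. As deposited 11 passed as higher and 0 as lower, against 6.21% and 1.16% of all tested genes, with 29 higher and 1 lower before adjustment. By limma-voom the counts were 4 and 5. Their median log2 difference was 0.07.

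Pck2, the mitochondrial phosphoenolpyruvate carboxykinase, which turns oxaloacetate into the product of enolase, rose. It was at 28.3, 17.5 and 22.6 FPKM in Tfam KO and at 4.86, 4.07 and 5.65 in Control, far apart in every library. The log2 difference was 1.70 ± 0.15 (SE, adjusted p = 0.000132, limma), larger than that of any member, and the ratio of the scaled means was 3.70. Its promoter window is shown because Pck2 rose by more than any member and its window holds TGATGNAA, the composite element read by ATF4 with C/EBP factors. It comes from RefSeq on GRCm38.p6, plus strand, chr14:55540016-55540315. Capitals mark the match, which is on the opposite strand.
Pck2: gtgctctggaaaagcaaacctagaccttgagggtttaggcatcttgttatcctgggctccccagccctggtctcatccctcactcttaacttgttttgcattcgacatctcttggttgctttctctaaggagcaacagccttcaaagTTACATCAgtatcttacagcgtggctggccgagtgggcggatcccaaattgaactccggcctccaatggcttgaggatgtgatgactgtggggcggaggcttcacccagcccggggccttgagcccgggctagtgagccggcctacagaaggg
The window held 1 match, and 3.97% of all windows of the table held at least 1. The windows of Eno2, 9630033F20Rik, Pgp and Txnip, other pathway genes past the threshold and described below, held 0. None of the 54 member windows held this motif, Hk2 included, which says only that these letters are not in those windows.

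Eno2, the gene of the neuron-specific enolase, rose from a trace level. It was at 4.79, 2.86 and 3.28 FPKM in Tfam KO and at 0.437, 0.277 and 0.547 in Control, on 104 to 158 and 9 to 26 reads. The log2 difference was 1.51 ± 0.17 (SE, adjusted p = 0.000602, limma) on the log2(FPKM + 1) scale, which compresses low values. By limma-voom on reads it was 2.68, and the ratio of the scaled means was 6.90, both larger than for Pck2 (1.87 by limma-voom). Eno2 was added to the enolase family after its values were seen, and the shares given above for Eno3 leave it out. In the sum with Eno1 and Eno3, Eno2 made up 7.58%, 6.13% and 6.39% of the message in Tfam KO and 0.995%, 0.468% and 1.17% in Control. These percentages rest on the measured level of Eno1, 72.2% of whose stretches also occur in other genes, so they are not true proportions. All 7 neural markers averaged under 1 FPKM, and their summed level was 2.37 to 3.41 scaled FPKM in Tfam KO and 2.81 to 4.90 in Control. Elavl4 alone of them separated the groups, at 0.643, 0.336 and 0.643 FPKM in Tfam KO and 0.263, 0.178 and 0.324 in Control. It rested on 9 to 44 reads per library. The part of neural cells in the values of Eno2 was not tested.

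The row 9630033F20Rik, an older symbol of Tigar, encodes a phosphatase that lowers fructose 2,6-bisphosphate. It was at 5.28, 5.73 and 5.41 FPKM in Tfam KO and at 1.89, 2.24 and 1.88 in Control, and rose by 0.85 on the log2 scale (adjusted p = 0.0131, limma). Gnpnat1, an enzyme of the hexosamine branch, was at 4.46, 3.03 and 5.29 against 1.67, 1.66 and 1.42, and rose by 0.75 (adjusted p = 0.0128). In the reference, 88.5% of the stretches of Gnpnat1 are shared, mostly with Styx, so its reads cannot be told apart from those of that gene. Without the third Control library the adjusted p was 0.0655 for 9630033F20Rik and 0.0671 for Gnpnat1, and with no filter on low values it was 0.0621 and 0.0556, past the threshold in none of these.

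Pgp and Txnip fell with size factors but did not pass as deposited. Pgp, which encodes phosphoglycolate phosphatase, was at 11.9, 12.9 and 15.9 FPKM in Tfam KO and at 16.5, 15.4 and 20.3 in Control. The log2 difference was -0.65 (adjusted p = 0.0206, limma), and -0.33 as deposited (adjusted p = 0.320). Txnip, which restrains glucose uptake and is itself induced by glucose, was at 19.3, 17.1 and 20.3 against 21.7, 25.5 and 23.4. The log2 difference was -0.62 (adjusted p = 0.0206), and -0.30 as deposited (adjusted p = 0.368). Each lost its call in 4 of the 6 fits that left out 1 library. For Pgp these were the fits without replicate 1 or replicate 3 of either group (adjusted p 0.0533 to 0.0980). For Txnip they lacked replicate 1 of either group, Tfam KO replicate 3 or Control replicate 2 (adjusted p 0.0515 to 0.0690).

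**Figure D5:**
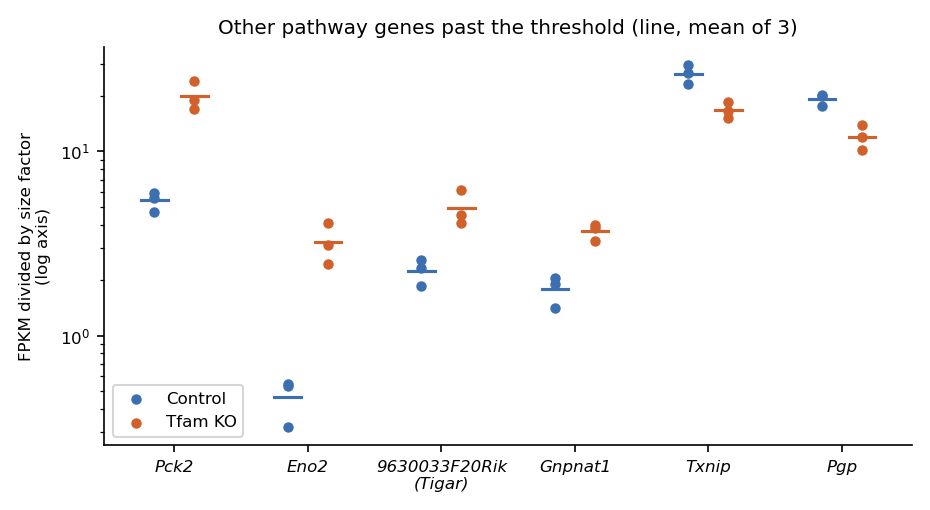
FPKM divided by the size factor (log axis) of the 6 other pathway genes past the threshold, 1 point per library, with a line at the mean of each group of 3. Tfam KO points (orange) lie above Control points (blue) for Pck2, Eno2, 9630033F20Rik and Gnpnat1, and below them for Txnip and Pgp.

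The other branches held few calls. None of the 18 tested glycogen genes outside the members passed by limma (before adjustment, 1 was higher and 2 lower with p under 0.05), and by limma-voom 1 passed as lower. None of the 8 pentose phosphate and PRPP genes passed (0 and 1 before adjustment), with 1 lower by limma-voom. Of the 12 genes of the pyruvate dehydrogenase switch and glycerol phosphate shuttle, 0 passed (1 and 1 before adjustment), with 1 lower by limma-voom. As deposited 1 of them, Gpd2, passed as higher (adjusted p = 0.0340, limma). Of the 12 hexosamine and polyol genes, 1 rose, with 6 higher before adjustment, against 8.49% of all tested genes. As deposited 3 passed as higher, Gnpnat1, Pmm1 and Ogt. Among 16 regulators of glycolytic genes, Txnip alone passed. As deposited, Hif1a (0.82, adjusted p = 0.00959, limma), the oxygen-sensitive factor, and Myc (0.75, adjusted p = 0.0198) passed as higher, whereas with size factors they were at 0.48 (adjusted p = 0.136) and 0.47 (adjusted p = 0.0907).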

How the data were processed

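Each library's table held, for 23284 gene symbols, values deposited as log2(FPKM + 1). Base 2 and the whole-read steps were worked out from the values: 17875 of the 17876 genes above 0 gave whole reads in all 6 libraries, with library totals that 591 genes gave alike. Tools listed in the submitters' processing notes are TopHat2 2.0.7, HTSeq 0.5.3 and CASAVA 1.8.2, with the build mm9. For the annotation and strand setting, the sources used here give nothing, and no positions are taken from the tables.

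Values were turned back to FPKM and divided by median-of-ratios size factors. For the 10807 genes averaging 1 FPKM or more, limma 3.58.1 (R 4.3.3) was run on log2(scaled FPKM + 1), with the group as the only term and a trended moderated variance, two-sided, with Benjamini-Hochberg adjustment at 0.05. This scale understates the change of low genes. Isozyme shares and step totals were compared with exact permutation tests. Alternatives were the deposited scale, upper-quartile factors, limma-voom on the recovered reads, a pseudocount of 0.1 FPKM, other filters, no variance trend, a replicate block and leaving out each library. With size factors, limma p-values rest only in part on the gene's own spread between pools of 5 hearts. The rest of its variance came from the trend over genes of similar level, weighted as 6.14 degrees of freedom. In the limma fit to the values as deposited, a gene's own spread had no weight. Its variance came wholly from the trend over genes of similar level. Thus Gapdh and Hk2 had standard errors of 0.289 and 0.120 with size factors, but 0.218 and 0.230 as deposited. The limma p-values given as deposited therefore do not measure how far the pools differed for the gene in question. Reads carry no molecular identifiers.

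Sequence sharing was counted over stretches of 50 bases in GENCODE transcripts of GRCm38, a later build than mm9. Members, lists and tests were chosen with earlier results of these data known. By rule, single-library values were given for members past the threshold on either scale and for families with a share that separated the groups. Other pathway genes were named if past the threshold.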

Additional observations from a re-analysis of the deposited data

How the results depend on the processing

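Hk2 kept its direction and its call in all 14 alternatives. The count of members past the threshold as higher was 1, but 3 as deposited and 1 to 2 when 1 library was left out (2 without Tfam KO replicate 3, which adds Gys1); that of lower members was 0 throughout. For the other pathway genes the 4 higher became 11 as deposited, 2 with no filter on low values and 1 with a filter of 5 FPKM, under which fewer genes are tested, and 2 to 5 with 1 library left out. Their 2 lower became 0 as deposited, 5 by limma-voom and 0 with no filter, and 0 to 2 with 1 library left out. Of all tested genes, the 215 higher and 281 lower became 286 and 455 by limma-voom, 164 and 144 with no filter, and 134 and 126 without Control replicate 3. The lower count was also 163 without Tfam KO replicate 3 and 156 without Control replicate 1.

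With the replicate number as a block, the members stayed at 1 higher and 0 lower, the other pathway genes were 6 and 4, and all tested genes 278 and 421. Deviations of same-numbered libraries correlated at 0.36, 0.07 and 0.16, and Tfam KO replicate 3 and Control replicate 2 did not correlate best with their own number, so the numbers were not taken as pairs. The exact sign-flip test of shares and totals cannot go below p = 0.25 under this pairing.

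As deposited, the sign turned positive for Hk1 (0.0052), Pfkl (0.013), Pfkm (0.29), Tpi1 (0.23), Pgk1 (0.31), Pgam1 (0.22), Pkm2 (0.077), Ldha (0.10), Ldhb (0.10), Slc2a4 (0.26), Slc16a3 (0.049), Pfkfb3 (0.22), Gbe1 (0.25), Pygb (0.053), G6pdx (0.17), Pgd (0.27) and Taldo1 (0.33), and also with upper-quartile factors for Taldo1 (0.0075). It turned for the summed FPKM of hexokinase (13.9), phosphofructokinase (16.3), phosphoglycerate mutase (22.0), enolase (0.624), lactate dehydrogenase (24.6) and glycogen phosphorylase (13.95). These are the same FPKM without division by the size factors. The Pfkfb4 share turned on a log2 scale (-0.21).

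With 1 library left out, differences that changed sign ran from -0.095 to 0.066 for Pfkm, -0.19 to 0.0073 for Tpi1, -0.092 to 0.50 for Gapdh, -0.068 to 0.018 for Pgk1, -0.21 to 0.12 for Slc2a4, -0.022 to 0.20 for Pfkfb2, -0.073 to 0.030 for Pfkfb3, -0.33 to 0.059 for G6pdx, -0.14 to 0.095 for Pgd and -0.13 to 0.11 for Taldo1. In percentage points, shares ran from -1.11 to 1.01 for Ldhb, -1.57 to 1.67 for Pfkfb1, -0.414 to 4.42 for Pfkfb2, -5.08 to 0.821 for Pfkfb3, -1.24 to 1.97 for Pfkfb4 and -1.58 to 0.195 for Pgm2. Scaled totals ran from -4.58 to 0.262 FPKM for hexokinase, -2.97 to 3.81 for phosphofructokinase, -0.099992 to 0.480 for PFKFB and -4.99 to 1.31 for glycogen phosphorylase. Members at few reads, such as Aldoc and Pfkfb4, are limited by depth, and outliers were not tested for in groups of 3.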
